A study of Mus musculus with 8 samples.

Results

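The miRs described here are the 3p arms of the mouse hairpins numbered miR-6896 to miR-7093, measured in small RNA of muscle extracellular vesicles (EVs). They were chosen by name alone: every row of the count table whose first name carries a number in this block, an optional letter and the ending 3p. The rule found 169 members among 1755 miRs, beside 197 miRs of the same block named as 5p arms and 537 other miRs named as 3p arms. Vesicles of oxidative muscle (OXI-EV, the soleus combined with the red gastrocnemius) were set against those of glycolytic muscle (GLY-EV, the entire quadriceps), with 4 libraries per group. All mice were untreated C57BL/6J males bought at 10 to 12 weeks of age. Muscle of 1 leg per animal was kept in serum-free medium for 24 h, vesicles were collected from that medium, and 3 to 8 ng of RNA entered each library. The tissue was whole muscle, so vesicles of vessel, blood and connective tissue cells could be present with those of muscle fibers. Each library is a separate sample, but the labels do not say whether the groups share mice. The study compared vesicle release of the 2 muscle types by paired tests, but for these libraries no pairing is given, and p-values therefore measure the spread between these libraries.

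Mirtrons are short hairpins that are released from an intron by splicing and not by the Drosha complex that cuts most miR precursors. In the classic form the whole intron is the hairpin, so that the 5p arm starts at the 5′ splice site and the 3p arm ends at the 3′ splice site. In tailed mirtrons only one end of the hairpin lies at a splice site, and the rest of the intron is trimmed off before Dicer cuts the hairpin. Because the end of an intron holds a pyrimidine-rich tract followed by AG, the 3p arm of such a hairpin carries these letters. The 5p and 3p arms leave Dicer as a duplex, and normally one of them is kept in Argonaute while the other is degraded.

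A mature sequence was found in RefSeq (GRCm38.p6) for 150 of the 169 members. Their length was 18 to 25 bases, with a median of 22. The median member was 72.7% pyrimidine, against 31.8% for the 173 5p arms of the block and 54.5% for 465 other 3p miRs with a sequence. The last 2 bases were AG in 113 members (75.3%), against 6.94% of the 5p arms and 10.8% of the other 3p miRs. The last 3 bases were CAG in 96 members (64.0%), against 2.31% and 4.95%. The 4 members below show this form, written 5′ to 3′ with the last 3 bases in capitals. The first 3 are abundant members, and the 4th belongs to a hairpin that fills its intron.
miR-6946-3p: uuucuucucuucccuuuCAG
miR-6986-3p: guuuucaccuuccuccCAG
miR-6959-3p: cugcaccgaccugcucuccCAG
miR-7018-3p: ucacccugcugccggcuugCAG

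The members' place in the genome matched these letters. With the GENCODE annotation of the same build, 145 members were placed at 146 hairpin loci, and 140 loci (95.9%) lay within an intron of a protein-coding gene on the same strand. With a tolerance of 2 bases, the hairpin reached only the 3′ end of the intron at 127 loci. It reached both ends at 8, only the 5′ end at 4 and neither end at 1. Introns of all annotated transcripts were used, and the one ending nearest to the mature 3p arm was taken. That choice favors the 3′ end. Some 3p arms also overlapped an exon of another transcript. At the 127 loci the intron held 7 to 36205 bases upstream of the hairpin (median 434), whereas the 8 introns that the hairpin filled were 67 to 96 bases long. The mature 3p arm stopped on the last base of the intron at 103 loci and within 2 bases of it at 129. The block was therefore made up mainly of hairpins with a long 5′ tail, and the label mirtron-type describes their position. These data contain no test of how the hairpins were processed.

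**Figure D1:**
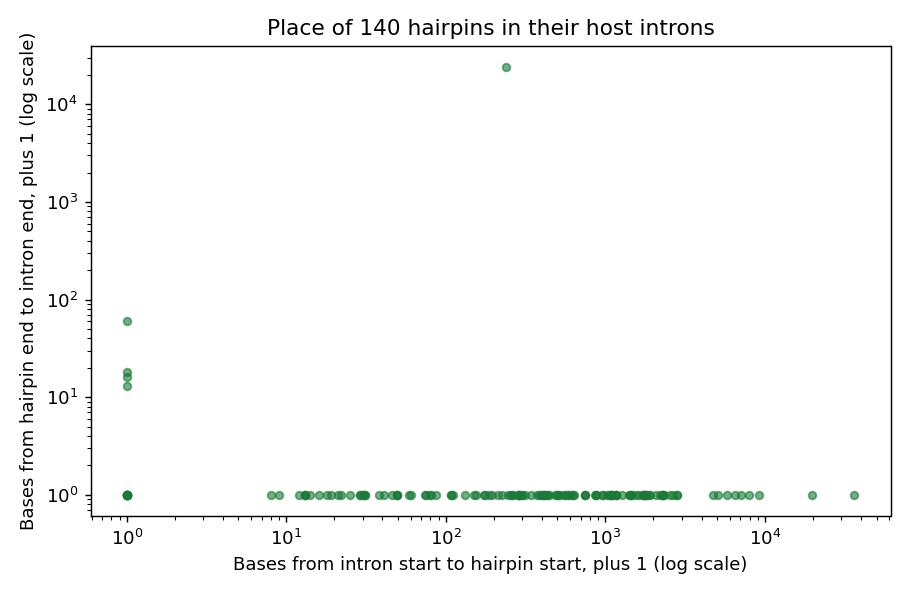
Each point is 1 hairpin in its host intron: the horizontal axis gives the bases from the start of the intron to the start of the hairpin, the vertical axis those from the end of the hairpin to the end of the intron, both plus 1 on log scales. Of 140 hairpins, 127 lie along the bottom, at the end of an intron with a tail before them, and 8 lie on the point at the lower left, where hairpin and intron coincide.

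The hairpin of miR-7018 fills a short intron of Hspg2, the gene of the basement membrane proteoglycan perlecan. The 5p arm starts with GUG, of which GU is the usual start of introns at the 5′ splice site, and the 3p arm ends with CAG. The hairpin of miR-7068 fills an intron of Cherp in the same way, although an exon of another Cherp transcript overlaps its 3p arm. The opposite form occurs at miR-6977, whose hairpin starts with an intron of Ptprs, a receptor tyrosine phosphatase, and stops 15 bases before its end. There the 5p arm starts with GUG and the 3p arm does not end in AG. In the 3 pairs below, the first 3 bases of each 5p arm and the last 3 bases of each 3p arm are in capitals. For the 3p arm of miR-6977 these bases do not lie at a splice site.
miR-7018-5p: GUGagcagacagggaguggugggg
miR-7018-3p: ucacccugcugccggcuugCAG
miR-7068-5p: GUGaggcucaguauggggugg
miR-7068-3p: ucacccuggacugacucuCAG
miR-6977-5p: GUGaggcgcugugggcacggcuugg
miR-6977-3p: aaggcguugccugacccugACC

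Seeds, bases 2 to 8 of the mature miR and the main part that pairs with target mRNAs, were mostly private to 1 member. Among the 150 members with a sequence, 1 seed was shared by 3 members and 6 seeds by 2 members. The seed CACCCUG belonged to miR-7018-3p, miR-7023-3p and miR-7068-3p, which had mean counts over the 8 libraries of 10.0, 5.0 and 12.3, at the low end of the table. The seed CUUCCAU belonged to miR-7048-3p, with a mean of 77.6 counts, and miR-7077-3p, with 8.63. The 5 members of these groups are written below with the seed in capitals.
miR-7018-3p: uCACCCUGcugccggcuugcag
miR-7023-3p: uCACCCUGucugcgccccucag
miR-7068-3p: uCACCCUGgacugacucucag
miR-7048-3p: uCUUCCAUucucuuuccccag
miR-7077-3p: cCUUCCAUggcuccuggcag

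Some members shared a seed with a miR outside the block. The seed CUGUUCU of miR-6932-3p and miR-7039-3p was also that of miR-26a-2-3p and miR-26b-3p, the less abundant arms of the miR-26 family. Here miR-6932-3p had a mean of 20.6 counts and miR-7039-3p 9.25, beside 72.9 for miR-26a-2-3p and 59.9 for miR-26b-3p. The seed of miR-7002-3p was that of miR-218-5p, and that of miR-7069-3p was that of miR-18a-3p, an arm of the miR-17-92 cluster. In these pairs the member had the higher mean count, 26.1 for miR-7002-3p against 22.6 for miR-218-5p, and 28.5 for miR-7069-3p against 11.5 for miR-18a-3p. No member's mature sequence was identical to, or contained in, that of another member.

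The 4 OXI-EV libraries held 4151145 to 4867396 mapped reads and the 4 GLY-EV libraries 5179262 to 7197716. The summed miR counts ran from 348730 to 572106 per OXI-EV library and from 587068 to 1004011 per GLY-EV library. Counts were divided by mapped reads to give counts per 1000000 mapped reads (CPM). Of the muscle miRs, miR-1a-3p had 88028 to 113291 counts per OXI-EV library against 318672 to 526426 per GLY-EV library, and miR-206-3p had 147188 to 294185 against 40036 to 49057, and both were among the most abundant miRs. Markers of other cells were present too: endothelial miR-126a-3p had 192 to 782 counts in OXI-EV against 1004 to 3385 in GLY-EV, and smooth muscle miR-143-3p 1112 to 2362 against 4398 to 11017. Of the leukocyte miRs, miR-223-3p had 15 to 45 counts in OXI-EV against 29 to 157 in GLY-EV, and miR-142a-5p 6 to 70 against 4 to 20. Erythroid miR-451a had 15 to 191 counts in OXI-EV against 21 to 108 in GLY-EV, and miR-144-3p 0 to 73 against 6 to 31. OXI-EV replicate 2 was the highest of the 8 libraries for miR-142a-5p, miR-451a and miR-144-3p, and also for the members' summed level given below. The other blood cell miRs listed were highest elsewhere. Erythroid miR-144-5p peaked in OXI-EV replicate 3 (27 counts). Leukocyte miR-223-3p, miR-142a-3p and miR-150-5p peaked in GLY-EV replicate 4 (157, 97 and 252 counts). Single libraries stood out for 2 neural miRs, with 671 counts of miR-9-5p in OXI-EV replicate 4 and 72 of miR-124-3p in OXI-EV replicate 2. The part of these other cells in the members' values was not tested.

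Zeros in the count table were shared by fixed pairs of libraries. OXI-EV replicates 1 and 4, OXI-EV replicate 2 and GLY-EV replicate 4, OXI-EV replicate 3 and GLY-EV replicate 2, and GLY-EV replicates 1 and 3 formed 4 such pairs. In each pair, every miR or piRNA either had at least 10 counts in 1 or both libraries or was listed at 0 in both. A 0 in only 1 of the 2 libraries, with at least 10 counts in the other, occurred in 8 cases in all. In the 24 other pairs of libraries, 154 to 276 rows were at 0 in only 1 library. A listed 0 may therefore stand for any count up to 9, and the fold change of a row with a 0 depends on what it stands for. Of the members, 58 (34.3%) had at least one 0, against 21.3% of all miRs and 13.2% of the 5p arms of the block. Zeros occurred in 2 libraries for 38 members, in 4 libraries for 19 and in 1 library for 1. The results below are given with and without these members where the difference matters.

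The members were rare. Their mean count over the 8 libraries ran from 3.38 to 261, with a median of 16.4, and 157 of the 169 (92.9%) lay under 50. The median was 25.1 for the 5p arms of the block, 22.1 for other 3p miRs and 24.8 for the other miRs of the table. Only miR-6946-3p had a mean of 100 counts or more, which 4.06% of the 5p arms and 9.31% of other 3p miRs had. By mean CPM it was the 58th of all miRs, and the median member ranked 1181st. The 8 most abundant members held 21.3% of all member counts.

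miR-6946-3p, the most abundant member, comes from the last bases of an intron of Sec24c, a subunit of the COPII coat of secretory vesicles (chr14:20690684-20690703, plus strand). It had 66, 186, 1024 and 256 counts in OXI-EV replicates 1 to 4, against 174, 91, 144 and 150 in GLY-EV replicates 1 to 4. The value of OXI-EV replicate 3 was far above the others, that of OXI-EV replicate 1 was the lowest count of all 8, and the groups overlapped. In that library this single miR made up 23.0% of all member counts. The log2 fold change was 1.85 ± 0.71 (SE, edgeR adjusted p = 0.271), and 0.71 without OXI-EV replicate 3.

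miR-6986-3p ends an intron of Rce1, which encodes a protease of the CAAX box proteins (chr19:4623898-4623916, minus strand). Its counts were 61, 72, 151 and 127 in OXI-EV, against 75, 90, 49 and 126 in GLY-EV. In CPM it ran from 14.02 to 32.3 in OXI-EV and from 8.58 to 24.3 in GLY-EV, and only GLY-EV replicate 4 lay within the OXI-EV range. The log2 fold change was 0.68 ± 0.51 (edgeR adjusted p = 0.539). miR-6991-3p, in an intron of 2700081O15Rik, had 55, 112, 113 and 96 counts in OXI-EV, against 84, 68, 45 and 69 in GLY-EV. Of the OXI-EV libraries 3 lay above every GLY-EV library, in counts and in CPM, and only replicate 1 fell among them. The log2 fold change was 0.96 ± 0.46 (edgeR adjusted p = 0.352).

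miR-6959-3p ends an intron of Sbf1, a myotubularin-related gene (chr15:89305658-89305679, minus strand). It had 95, 115, 75 and 118 counts in OXI-EV, against 69, 43, 36 and 90 in GLY-EV. In CPM its lowest OXI-EV value was 16.1 and its highest GLY-EV value 17.4, so the groups overlapped by a narrow margin. The log2 fold change was 1.18 ± 0.50 (edgeR adjusted p = 0.300). This was the only member called higher in OXI-EV by DESeq2 (log2 fold change 0.88, adjusted p = 0.0115), which gave an adjusted p to 52 of the 140 members tested and called 1.77% of all miRs with an adjusted p higher in OXI-EV.

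miR-6950-3p had 21, 312, 94 and 43 counts in OXI-EV, against 20, 21, 115 and 23 in GLY-EV, so that each group held high and low libraries. Its log2 fold change was 1.84 ± 0.90 (edgeR adjusted p = 0.359), and 0.57 without OXI-EV replicate 2. miR-6977-3p had 33, 68, 63 and 210 counts in OXI-EV, against 63, 49, 45 and 116 in GLY-EV. The 4th replicate was the highest in both groups, and the log2 fold change was 0.81 ± 0.62 (edgeR adjusted p = 0.545).

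miR-6976-3p lies in an intron of Srf, the gene of serum response factor, a regulator of muscle genes. It had 51, 82, 64 and 90 counts in OXI-EV, against 91, 49, 77 and 105 in GLY-EV, and its highest library was 1.49 times its median in CPM, the smallest such ratio of the 8 members. Its log2 fold change was 0.25 ± 0.48 (edgeR adjusted p = 0.819) and changed sign with other scalings. miR-7048-3p, in an intron of Dedd2, had 63, 59, 46 and 87 counts in OXI-EV, against 232, 35, 32 and 67 in GLY-EV. GLY-EV replicate 1 stood alone, and the log2 fold change was -0.01 ± 0.62 (edgeR adjusted p = 0.993). The abundant members of these paragraphs that have a reference sequence and were not yet written with their seed are given here, seed in capitals.
miR-6946-3p: uUUCUUCUcuucccuuucag
miR-6986-3p: gUUUUCACcuuccucccag
miR-6991-3p: gCAGCCCUuuguucuucuccag
miR-6959-3p: cUGCACCGaccugcucucccag
miR-6976-3p: aUCUCCCUcccaacuccccag
miR-6977-3p: aAGGCGUUgccugacccugacc

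**Figure D2:**
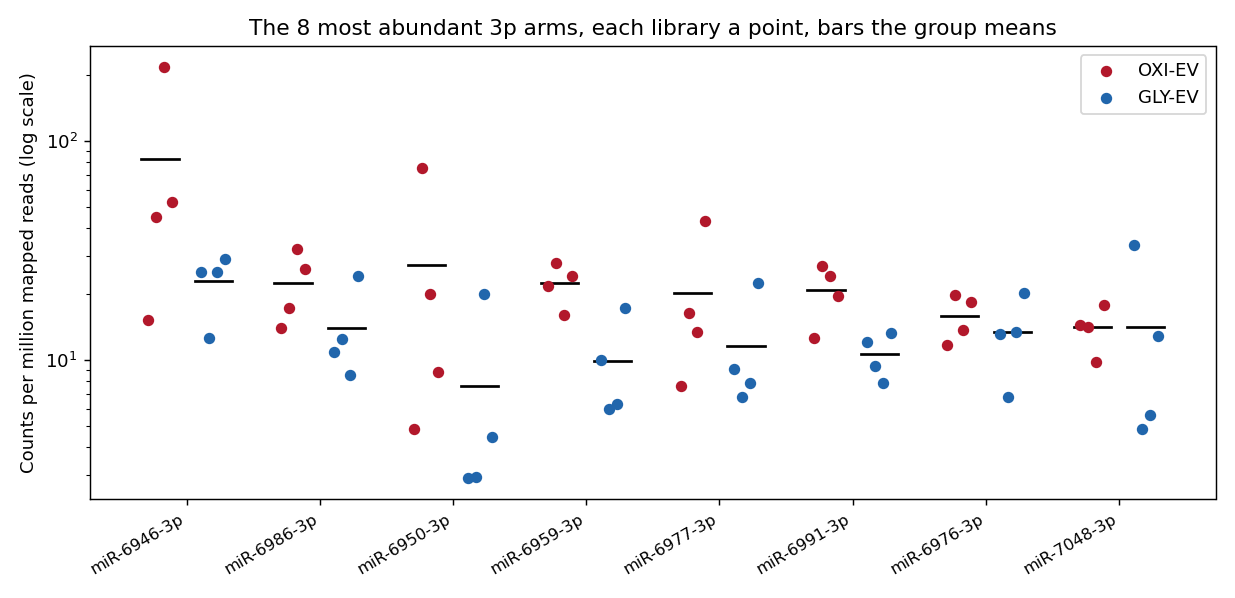
Level of the 8 most abundant 3p arms in CPM on a log scale, with each library as a point and the group mean as a bar. The groups overlap for each of the 8. Single libraries stand above the rest of their group for miR-6946-3p, miR-6950-3p and miR-6977-3p in OXI-EV. The same holds for miR-6950-3p, miR-6977-3p and miR-7048-3p in GLY-EV.

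Summed over all 169 members, the 3p level was higher in most OXI-EV libraries. The sums were 618, 1333, 953 and 1005 CPM in OXI-EV replicates 1 to 4, against 649, 286, 523 and 795 CPM in GLY-EV. The mean was 977 ± 293 CPM for the OXI-EV libraries and 563 ± 216 CPM for those of GLY-EV (SD, n = 4 each), a ratio of 1.74. OXI-EV replicate 1 lay below GLY-EV replicates 1 and 4, so the groups overlapped. The ratio was 1.68 for the members above 0 in all 8 libraries, 1.70 with each 0 set to 9 counts and 1.66 without miR-6946-3p. Fewer vesicles and less RNA per vesicle cannot be told apart in such sums, nor can fewer cells of a type and less RNA per cell.

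As a share of all miR counts of a library, the members' sums did not overlap between the groups. They were 0.734, 1.39, 1.28 and 0.855% in OXI-EV, against 0.555, 0.265, 0.508 and 0.410% in GLY-EV. The 5p arms of the block did not overlap either, with 1.41 to 4.05% in OXI-EV against 0.499 to 0.856% in GLY-EV. The 4.05% of OXI-EV replicate 1 was 1.35% without miR-6941-5p, still above the GLY-EV libraries. As the whole miR count of the OXI-EV libraries was the lower one, a share rises there for any miR whose counts do not fall with it. In raw counts the members summed to 2689, 5534, 4450 and 4890 in OXI-EV, against 4491, 2056, 2983 and 4115 in GLY-EV, with a ratio of 1.29. With TMM scaling, which takes most miRs as equal, the ratio was 1.32. The TMM-scaled sums, whose units differ from CPM by mapped reads, were 6950, 8451, 8320 and 6625 in OXI-EV. In GLY-EV they were 6355, 5301, 6264 and 5126. On this scale the groups did not overlap either, but OXI-EV replicate 4 lay only a little above GLY-EV replicate 1.

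**Figure D3:**
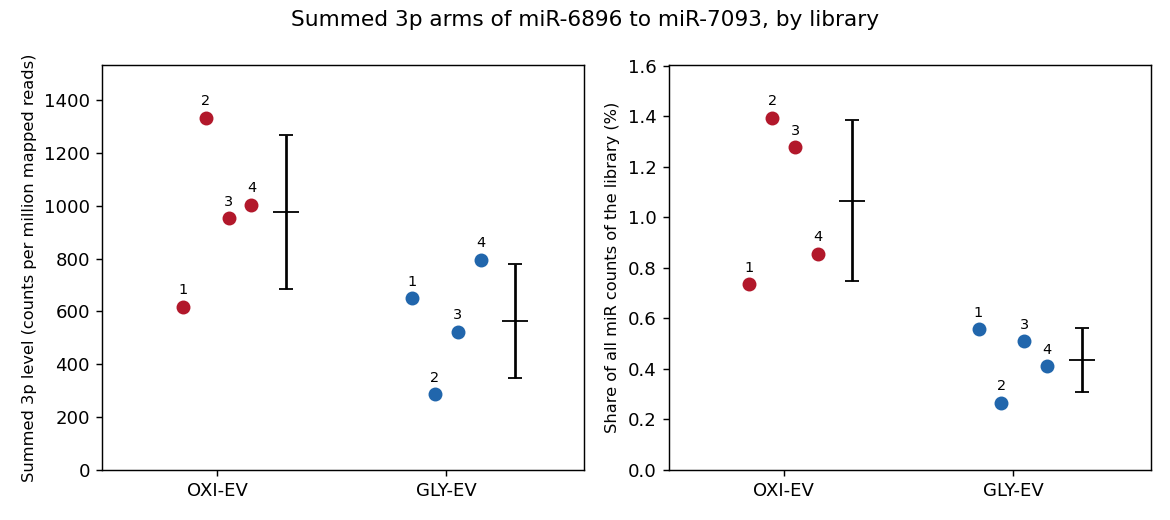
Summed level of the 169 members in each library, in CPM (left) and as a percentage of the miR counts (right). Points are libraries with their replicate number, and the bars beside them are the group mean and 1 SD (n = 4 each). OXI-EV replicate 1, with 618 CPM, falls among the GLY-EV libraries on the left, whereas on the right all OXI-EV libraries lie above 0.7% and all GLY-EV libraries below 0.6%.

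Single members were compared between groups with edgeR's quasi-likelihood test over the 1569 miRs that reached 10 counts in 4 or more libraries, with p-values adjusted over all of them. Of the members 140 passed that filter, 29 of them with at least one 0, and 29 did not. None of the members passed an adjusted p of 0.05, where 1.85% of all miRs tested did (0.0637% higher and 1.78% lower in OXI-EV). The smallest adjusted p of a member was 0.202. At an unadjusted p under 0.05, 15 members were higher in OXI-EV and 0 lower, against 9.05% higher and 5.42% lower of all miRs. Their log2 fold changes were 1.06 to 3.39, and for 7 of the 15 a single library was at least 5 times the median of the 8. The 15 members are 10.7% of those tested, near the share of all miRs in that direction.

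The members' fold changes followed those of the whole table. The median log2 fold change was 0.59 for the members, 0.56 for the 187 5p arms of the block that were tested and 0.48 for all miRs. It was above 0 for 120 of the 140 members, against 78.4% of all miRs. With TMM scaling the medians were 0.19 for the members and 0.09 for all miRs, and 90 members were above 0, against 57.6% of all miRs. On that scale 0 members were called, where 5.48% of all miRs were, and at an unadjusted p under 0.05 there were 7 higher and 2 lower, against 6.44% and 9.05% of all miRs (edgeR). With the total miR count as library size the medians were 1.06 and 0.98, and 15 members were called higher and 0 lower in OXI-EV, against 12% and 3.06% of all miRs (edgeR). The direction of many members' fold changes hence depended on the scale, as it did for all miRs. For the 111 members above 0 in all 8 libraries the median was 0.59, with 16 higher at an unadjusted p under 0.05, against 12.5% of all miRs in that fit. The smallest adjusted p was 0.0605, and 4.34% of all miRs were called there (edgeR).

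**Figure D4:**
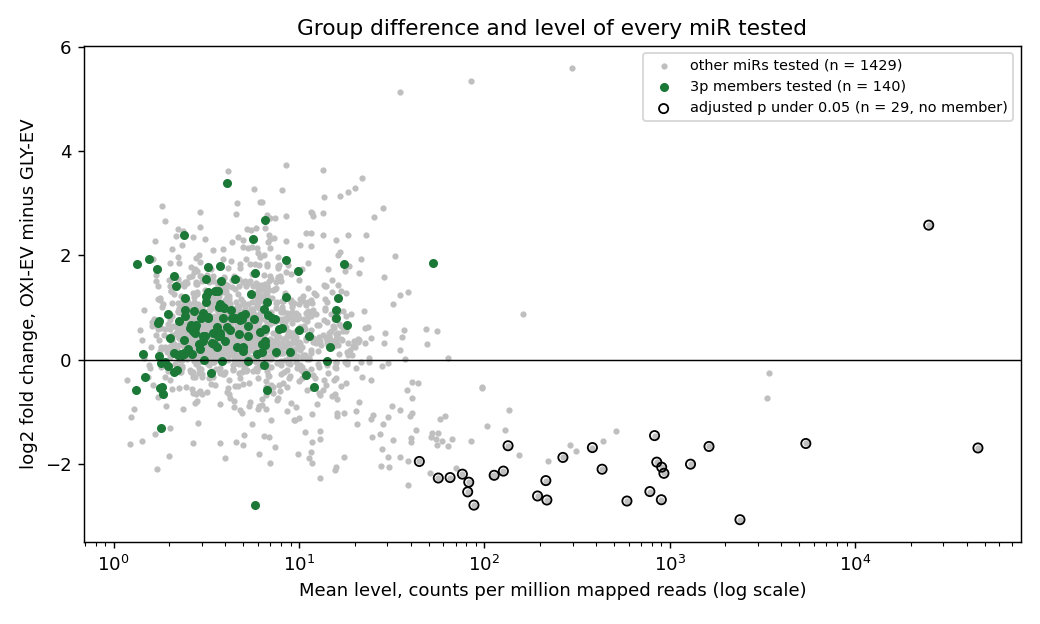
log2 fold change, OXI-EV minus GLY-EV, against mean level in CPM (log scale) for each miR tested. The 140 members (green) lie at low levels, most of them above 0 like the other miRs there, and none is among the 29 miRs with an adjusted p under 0.05 (circles), which lie at higher levels.

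In CPM the groups did not overlap for 3 of the members tested, all with OXI-EV above, against 3.7% of all miRs with OXI-EV above and 4.53% with OXI-EV below. miR-7069-3p, from an intron of Farsa, a subunit gene of phenylalanyl-tRNA synthetase (chr8:84867987-84868007, plus strand), had 57, 25, 52 and 25 counts in OXI-EV, against 29, 10, 11 and 19 in GLY-EV. In CPM it ran from 5.14 to 13.1 in OXI-EV and from 1.39 to 4.19 in GLY-EV, and the log2 fold change was 1.66 ± 0.54 (edgeR adjusted p = 0.202). Leaving out any library in turn kept it between 1.41 and 1.93. The other 2, named because their values were seen not to overlap, were closer. miR-6906-3p had 27, 21, 31 and 24 counts in OXI-EV, against 27, 21, 16 and 18 in GLY-EV. miR-7079-3p had 13, 15, 15 and 14 in OXI-EV, against 0, 16, 0 and 13 in GLY-EV, where both zeros belong to a pair that shares them. In raw counts, with no scaling, only miR-7040-3p did not overlap, with 3, 12, 10 and 12 in OXI-EV below 13, 13, 15 and 16 in GLY-EV. Of all miRs, 6.82% did so with OXI-EV below and 0.637% with OXI-EV above.

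The members with the smallest p in each direction rested mostly on 1 library. miR-7033-3p, in an intron of the nuclear pore gene Pom121, had 10, 17, 98 and 11 counts in OXI-EV, against 0, 4, 0 and 12 in GLY-EV. OXI-EV replicate 3 stood alone, and both zeros belong to a sharing pair. The fitted log2 fold change was 3.39 ± 1.12 (edgeR adjusted p = 0.202), and 2.02 without that library. miR-6943-3p lies in an intron of Grk6, the gene of a G protein-coupled receptor kinase. It had 9, 10, 21 and 177 counts in OXI-EV, against 15, 6, 11 and 11 in GLY-EV. Only OXI-EV replicate 4 was high, and the log2 fold change was 2.68 ± 0.90 (edgeR adjusted p = 0.212), and 0.76 without it.

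Toward lower levels in OXI-EV, miR-6941-3p came first. It lies at the end of an intron of Jag2, which encodes a Notch ligand (chr12:112920483-112920503, minus strand). It had 4, 9, 0 and 13 counts in OXI-EV, against 12, 0, 207 and 12 in GLY-EV, so GLY-EV replicate 3 alone was high. The log2 fold change was -2.78 ± 1.36 (edgeR adjusted p = 0.359), and 0.11 without that library. miR-7087-3p had 0, 10, 8 and 0 counts in OXI-EV, against 13, 21, 7 and 22 in GLY-EV. Both zeros are again shared by a pair, and the log2 fold change was -1.31 ± 1.12 (edgeR adjusted p = 0.592). miR-7050-3p had 46, 52, 23 and 57 counts in OXI-EV, against 278, 9, 35 and 49 in GLY-EV, and miR-6924-3p had 7, 63, 10 and 13, against 8, 12, 134 and 30. Each had 1 high GLY-EV library, and their log2 fold changes of -0.52 ± 0.80 and -0.57 ± 0.96 turned positive without it, to 0.83 and 0.92. The members of these comparisons are written with the seed in capitals.
miR-7069-3p: cCUGCCCUgccaaccccuaca
miR-7033-3p: uGCCUCCAuucucuugggcag
miR-6943-3p: cUGCUUCCauaccccuacccag
miR-6941-3p: cUAACUCGgcugcucccaaag
miR-7087-3p: uGCUGGCUcucuccccugccag
miR-7050-3p: uCUCAGCCuuuaucuccccag
miR-6924-3p: uCCUUAAUccccacccuucag

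Such isolated high libraries were frequent. In 16 of the 140 members tested (11.4%) the highest library had at least 5 times the median CPM of the 8, against 13.2% of all miRs. The high library was OXI-EV replicate 2 for 8 members, replicate 3 for 4 and replicate 4 for 3, and GLY-EV replicate 3 for 2, with miR-6924-3p high in both OXI-EV replicate 2 and GLY-EV replicate 3. Beyond miR-6941-3p and miR-6943-3p, the most extreme were miR-7078-3p and miR-6951-3p. miR-7078-3p, which lies in an intron of Cmip, had 13, 184, 9 and 22 counts in OXI-EV, against 52, 14, 9 and 16 in GLY-EV. Its log2 fold change was 1.91 ± 0.95 (edgeR adjusted p = 0.369), and -0.17 without OXI-EV replicate 2. miR-6951-3p had 3, 27, 10 and 138 counts in OXI-EV, against 13, 9, 10 and 14 in GLY-EV, and a log2 fold change of 2.31 ± 0.90 (edgeR adjusted p = 0.273), or 0.71 without OXI-EV replicate 4. Among members not tested, single libraries held most counts of miR-6963-3p (249 of OXI-EV replicate 2), miR-6981-3p (242 of the same library) and miR-7090-3p (234 of OXI-EV replicate 1), which were picked after their values were seen.

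Over the 140 members tested, the median coefficient of variation of CPM was 48.5% among OXI-EV and 52.6% among GLY-EV libraries, where counting error alone would give medians of 22.3% and 24.4%. It was larger than counting error for 88.6% of the members in OXI-EV and 95.0% in GLY-EV, beside 91.4% and 97.1% of the other miRs tested. For the 111 members with no 0 it was 43.8% and 47.9%, beside 44.7% and 54.2% for 757 other miRs with no 0 and mean counts in the range of the members. The members' spread was thus close to that of other miRs as rare.

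The 3p arm was then compared with the 5p arm of the same hairpin, as the log2 ratio of their counts in each library, in which library size cancels. Both arms were in the table for 167 member hairpins, and 160 had at least 20 counts over both arms in at least 4 libraries. The ratio was tested against 0 with limma over the 596 hairpins of the table that passed this filter. The 3p arm was above the 5p arm at an adjusted p under 0.05 in 20 member hairpins, where 20.8% of all hairpins were, and below it in 62, where 32.6% of all were. The median log2 ratio was -0.67, against -0.21 for the 436 other hairpins. The sign held in all 8 libraries for 10 hairpins with the 3p arm above and 40 with it below, against 12.9% and 21.3% of all hairpins. Among the 95 member hairpins above 0 in all libraries on both arms, 11 were above and 28 below (23.1% and 31.7% of all hairpins in that set), and the median was -0.19. A 3p arm of low level is itself more often listed at 0, so leaving out hairpins with a 0 also leaves out hairpins with low 3p arms, and these cannot be told apart here.

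**Figure D5:**
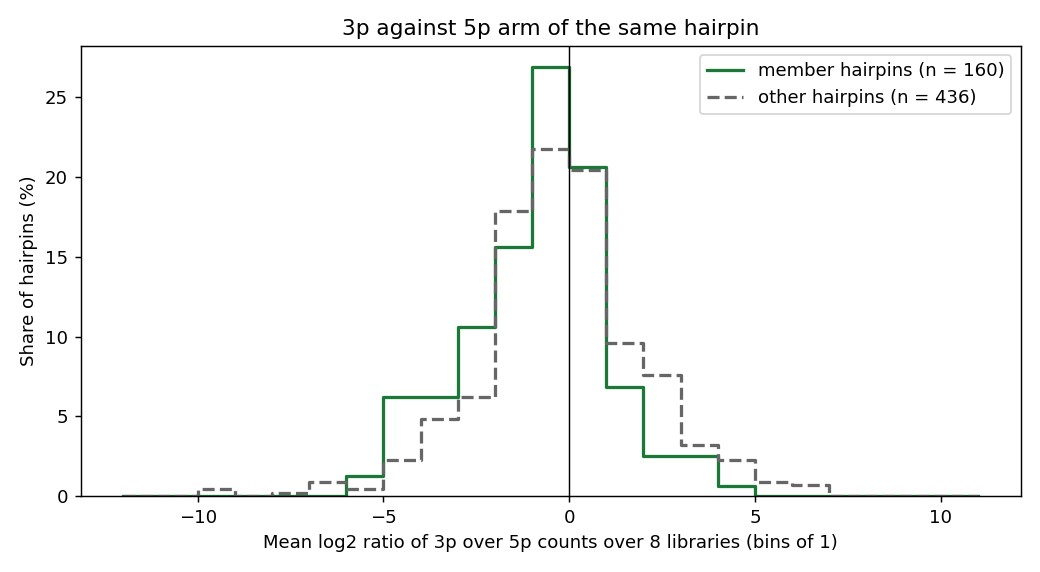
Distribution of the mean log2 ratio of 3p over 5p counts over the 8 libraries, in bins of 1, as a percentage of 160 member hairpins (solid) and 436 other hairpins (dashed). The member hairpins have their median at -0.67, below the -0.21 of the others, and fewer of them lie at high ratios.

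Counts summed over the hairpins with both arms gave the 3p arm 16.03, 41.6, 48.1 and 42.9% in OXI-EV, against 42.6, 38.4, 42.6 and 37.7% in GLY-EV. The low share of OXI-EV replicate 1 came from 1 row: miR-6941-5p had 9870 counts there, and 41 to 105 in the other 7 libraries. Without it the share was 39.2%, among the other values. The 3p arms together thus held a like share of both arms in the 8 libraries.

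Of the 4 hairpins with the highest ratios, 3 were those of members among the 8 most abundant. The ratio of miR-6986 was the highest of the 160, with 7, 8, 5 and 10 counts of its 5p arm in OXI-EV, and 0, 11, 0 and 17 in GLY-EV, beside the 3p counts given above. Its mean log2 ratio was 4.28 ± 0.53 (limma adjusted p = 0.000208), and the ratio was above 0 in 8 of 8 libraries. For such a hairpin the exact sign permutation test gives p = 0.00781, the smallest it can give with 8 libraries. miR-6946-5p had 16, 37, 18 and 28 counts in OXI-EV and 11, 19, 17 and 21 in GLY-EV, with no 0 on either arm. The mean log2 ratio of miR-6946 was 3.16 ± 0.41 (limma adjusted p = 0.000253), with the 3p arm above in every library. miR-6991-5p had 50, 94, 0 and 11 counts in OXI-EV and 8, 0, 14 and 24 in GLY-EV, and a mean log2 ratio of 3.11 ± 0.92 (limma adjusted p = 0.020). The 4th was miR-6945, whose 5p arm had 0, 6, 0 and 0 counts in OXI-EV and 15, 0, 6 and 13 in GLY-EV, beside 3p counts of 16, 13, 24 and 24 in OXI-EV and 28, 12, 19 and 17 in GLY-EV. Its mean log2 ratio was 3.10 ± 0.66 (limma adjusted p = 0.00430). Of the 4, only miR-6946 had no zeros, and in the other 3 the ratio depends on what a listed 0 stands for, although the 3p arm was above the 5p arm in each library. The seeds of the 2 arms are in capitals.
miR-6986-5p: aGGGGAGCuagguagaaagcca
miR-6986-3p: gUUUUCACcuuccucccag
miR-6946-5p: aAAAGGGAgagaaagaaaugc
miR-6946-3p: uUUCUUCUcuucccuuucag
miR-6991-5p: uGGAGAACagggacugggccug
miR-6991-3p: gCAGCCCUuuguucuucuccag
miR-6945-5p: uCCUGGGAggggcagccccugg
miR-6945-3p: uCUGAGCUcugcccuucccau

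The lowest ratios of the 160 belonged to miR-7062, miR-7015, miR-6955 and miR-6900, each with the 3p arm at 0 in 4 libraries. miR-7062-5p had 47, 123, 109 and 141 counts in OXI-EV and 115, 74, 74 and 172 in GLY-EV, while miR-7062-3p had 0, 6, 0 and 0 in OXI-EV and 5, 0, 13 and 16 in GLY-EV. The 3p arm was below the 5p arm in 8 of 8 libraries, with a mean log2 ratio of -5.52 ± 0.58 (limma adjusted p = 6.2e-05). miR-7015-5p had 38, 82, 58 and 99 counts in OXI-EV and 151, 145, 161 and 329 in GLY-EV, beside 9, 16, 0 and 21 of miR-7015-3p in OXI-EV and 0, 0, 0 and 11 in GLY-EV. Its mean log2 ratio was -5.38 ± 0.61 (limma adjusted p = 0.000119). The ratios of miR-6955, -4.82 ± 0.73, and miR-6900, -4.60 ± 0.80, passed the limma test too (adjusted p = 0.000612 and 0.00143). These sizes depend on the 0.5 added to each count, and with a listed 0 standing for up to 9 counts they are not estimates of the true ratio. The 4 hairpins are written as pairs, seeds in capitals.
miR-7062-5p: uGGAGGCCagcuuguggagugucu
miR-7062-3p: aCUAACUUcuccuggccccacag
miR-7015-5p: uCUGUGCAguaggcuguggguuc
miR-7015-3p: uCUCACUGuccucugcacuag
miR-6955-5p: aGGGCCUCaggacucaggagguga
miR-6955-3p: aCACCUGUcuccuuugcccaca
miR-6900-5p: uGCCAGGAgaagccuagagccguc
miR-6900-3p: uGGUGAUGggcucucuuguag

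Among member hairpins with no 0 on either arm, miR-6907, miR-7012 and miR-7074 had the lowest ratios, a choice made after the zeros were seen. miR-6907-3p had 10, 11, 10 and 15 counts in OXI-EV and 14, 6, 2 and 12 in GLY-EV, against 37, 50, 278 and 139 of miR-6907-5p in OXI-EV and 56, 23, 46 and 74 in GLY-EV. The 3p arm was the lower one in all 8 libraries, and the mean log2 ratio was -2.81 ± 0.39 (limma adjusted p = 0.000387). The mean log2 ratios of miR-7012 and miR-7074 were -2.26 ± 0.39 and -2.25 ± 0.31, also with the 3p arm lower in 8 of 8 libraries. A 5p arm that was more abundant than the 3p arm was therefore seen in single hairpins without any listed 0.

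A group difference in the arm ratio, OXI-EV against GLY-EV, passed the adjusted threshold of 0.05 in 0 of the 160 member hairpins (limma) and in 1.85% of all hairpins. At an unadjusted p under 0.05 it was higher in OXI-EV for 6 and lower for 4, together 10 of 160, against 12.1% of all hairpins. Among the 95 member hairpins with no 0 on either arm it was 0 at an adjusted p under 0.05, against 6.78% of that set, and 2 higher and 1 lower at an unadjusted p, against 17.1%. The 4 hairpins with the highest ratios had differences, OXI-EV minus GLY-EV on the log2 scale, of -1.30 ± 1.06 for miR-6986, 0.32 ± 0.81 for miR-6946, -0.57 ± 1.84 for miR-6991 and 2.46 ± 1.33 for miR-6945 (limma adjusted p = 0.653, 0.924, 0.935 and 0.483). Their errors were of the size of the differences or larger, except for miR-6945 and miR-6986. With 2 added to each count, miR-7015 passed the limma test, with a ratio higher in OXI-EV by 3.09 (adjusted p = 0.0467). Without OXI-EV replicate 3 it passed as well (5.22, limma adjusted p = 0.0266), as did miR-7031 with a lower ratio in OXI-EV (-4.50, limma adjusted p = 0.0266). Both hairpins hold shared zeros on the 3p arm: miR-7031-3p had 0, 6, 13 and 0 counts in OXI-EV and 10, 10, 6 and 13 in GLY-EV.

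Of the other mammalian mirtrons listed, miR-877, miR-1224 and miR-702 had arms in the table. miR-877-3p had 28, 43, 25 and 132 counts in OXI-EV, against 36, 31, 25 and 47 in GLY-EV, and miR-877-5p 18, 19, 11 and 14, against 10, 10, 11 and 38. Each arm had 1 library above the rest. miR-1224-5p had 30, 74, 52 and 36 in OXI-EV, against 56, 30, 49 and 81 in GLY-EV. Of miR-702, the 3p arm had 23, 17, 34 and 24 in OXI-EV, against 30, 11, 39 and 26 in GLY-EV, and the 5p arm 25, 27, 24 and 44, against 29, 14, 49 and 30. None of these 5 rows passed the adjusted threshold (edgeR adjusted p = 0.406 to 0.882), and for each of them the groups overlapped.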

How the data were processed

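Small RNA of muscle EVs was sequenced by the authors in 8 libraries made with a kit that tags molecules with unique identifiers, 1 library per sample. The deposited counts are whole numbers per miR and piRNA, not normalized, made according to the processing notes with cutadapt and STAR on GRCm38. For their versions and for the tool that counted, nothing is given in the sources used. The authors' columns of fold changes, log2 fold changes, p-values and FDR for OXI-EV against GLY-EV were not used. A table of read classes, deposited as numbers of reads, gave the mapped reads. Each count corresponds to 3.14 to 4.69 miR reads in the OXI-EV libraries and to 2.63 to 4.94 in those of GLY-EV.

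Members and lists were chosen with earlier results of these data known. Groups were compared by the quasi-likelihood test of edgeR 4.0.16 in R 4.3.3, with mapped reads as library size, at least 10 counts in at least 4 of 8 libraries, and Benjamini-Hochberg adjustment over all 1569 miRs with a threshold of 0.05. A positive log2 fold change means higher in OXI-EV, and the standard errors were obtained from the root of the F statistic. Arms were compared with limma 3.58.1 on log2((3p + 0.5)/(5p + 0.5)), for hairpins with at least 20 counts over both arms in at least 4 libraries. Exact sign permutation tests were two-sided. Both fits were tested on simulated data. Sequences came from RefSeq (GRCm38.p6), introns from the GENCODE annotation of the same build. Python 3.11.15 with pandas 2.3.3 was used for tables.

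Members named are the 8 with the highest mean CPM, the 4 with the smallest p in each direction, the 4 highest and 4 lowest mean arm ratios, the 4 with the largest ratio of highest to median library, and the 2 largest seed groups. Others are marked where named. Alternatives were other scales, filters, pseudocounts, blocks and tools, and leaving out each library. The fits without zeros and with a block by the pair of libraries that share zeros were added after the data were seen. Counting error is the only error that counts of a single library can show.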

Additional observations from a re-analysis of the deposited data

Results flagged for a closer look

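Within each group of 4 libraries, the values of the named members, the arm ratios of the named hairpins and the summed levels were checked for a library far from the other 3. Of 54 such groups 10 had one. Chance gives about 1 in 20, but that share does not apply here, because miR-6941-3p, miR-6943-3p and miR-7078-3p were named for a single high library and others for a small p. In OXI-EV, replicate 2 was high for miR-6924-3p (15.2 CPM, the others 1.61 to 2.67) and for miR-7078-3p (44.3 CPM, the others 1.93 to 4.52), replicate 3 for miR-7033-3p (21.0 CPM, the others 2.26 to 4.10) and replicate 4 for miR-6943-3p (36.4 CPM, the others 2.07 to 4.50). In GLY-EV, replicate 3 was high for miR-6941-3p (36.3 CPM, the others 0 to 2.32) and for miR-6950-3p (20.1 CPM, the others 2.89 to 4.44), and replicate 4 for miR-6977-3p (22.4 CPM, the others 6.81 to 9.10).

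Of the log2 arm ratios, 3p over 5p, that of miR-6945 was low in OXI-EV replicate 2 (1.05, the others 5.04 to 5.61), the only OXI-EV library in which its 5p arm was above 0. That of miR-7015 was low in OXI-EV replicate 3 (-6.87, the others -2.32 to -2.02), the only OXI-EV library with its 3p arm at 0, and high in GLY-EV replicate 4 (-4.84, the others -8.34 to -8.18), the only GLY-EV library with its 3p arm above 0. The zeros of both hairpins are ones that a pair of libraries shares.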

How the results depend on the processing

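Of 577 alternative values, 538 kept their direction and side of the threshold, or their size within a wide tolerance. A median could move by 0.476, and the log2 summed ratio by 0.555, which are the pooled SDs between libraries. The median of 0.19 with TMM scaling thus counted as kept. Of the 538, 434 were values of single named members or hairpins. One not past the threshold in the main fit only had to keep its sign and stay so. No member was called in any fit other than 2: with the total miR count as library size 15 members were higher in OXI-EV and the median log2 fold change was 1.06, and DESeq2 called 1. Leaving out each library gave 0 calls in every fit, medians of 0.40 to 0.81 and ratios of the summed level of 1.49 to 2.01. The 3p arm was above the 5p arm in 12 and below it in 42 of the 94 member hairpins with at least 40 counts over both arms (25.3% and 38.8% of all such hairpins). It was above in 11 and below in 28 of the 95 above 0 on both arms; leaving out each library gave 14 to 18 above and 53 to 59 below. The arm ratio differed between groups for 1 member hairpin with a pseudocount of 2, and for 0 to 2 with a library left out.

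Directions turned for single members that had not passed the test, and the cause was not tested. miR-7048-3p took log2 fold changes of 0.41 with the total miR count, 0.40 with limma-voom, 0.12 without OXI-EV replicate 3, 0.86 without GLY-EV replicate 1, 0.57 with the block by pair of libraries that share zeros, and -0.30 to 0.86 over all libraries left out. miR-6976-3p took -0.14 with TMM, -0.11 with DESeq2's size factors and -0.11 with DESeq2. miR-7050-3p took 0.34 with limma-voom, 0.83 without GLY-EV replicate 1 (-0.91 to 0.83 over all) and 1.12 with the pair block. miR-6924-3p took 0.92 without GLY-EV replicate 3 and 0.92 with the pair block (-1.89 to 0.92), miR-6941-3p 0.11 without GLY-EV replicate 3 (-3.28 to 0.11), and miR-7078-3p -0.17 without OXI-EV replicate 2 (-0.17 to 2.60). The difference in arm ratio between groups was -0.50 for miR-6946 without OXI-EV replicate 3 (-0.50 to 0.76), and for miR-6991 0.32, 0.29 and 0.66 without OXI-EV replicate 1, OXI-EV replicate 2 and GLY-EV replicate 2 (-2.24 to 0.66).

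Whether equal replicate numbers mark the same mouse could not be settled from the counts. Deviations of same-numbered libraries from their group means correlated at 0.19, -0.27, -0.25 and 0.10. Among same-numbered libraries, only those numbered 1 were each other's best match in the other group. OXI-EV replicate 3 and GLY-EV replicate 2, which share zeros, correlated at 0.58 and were each other's best match. OXI-EV replicate 2 and GLY-EV replicate 3 were also each other's best match. The other pair across groups that shares zeros, OXI-EV replicate 2 and GLY-EV replicate 4, correlated at 0.17. The part of the shared zeros in these values was not tested. So few correlations can neither show nor exclude shared mice. The replicate block by the number in the titles and that by the number after EV in the sample descriptions, whose meaning no label gives, called 0 members each (2.68% and 2.04% of all miRs). At an unadjusted p under 0.05 (edgeR) 7 and 4 were higher, against 5.42% and 3.06% of all miRs, and medians were 0.60 and 0.16, against 0.49 and 0.095. In the block by description number, OXI-EV replicate 2 (number 3) and GLY-EV replicate 2 (number 2) share their number with no other library. These libraries add nothing to the group difference of that fit. They had the highest and the lowest summed 3p level (1333 and 286 CPM). Under the block by title number miR-7048-3p took 0.41 and miR-7050-3p 0.20. Under the block by description number miR-6976-3p took -0.092, miR-7048-3p 0.017, miR-7078-3p -0.20 and the arm difference of miR-6991 1.52. A median count of 16.4 and listed zeros that can stand for up to 9 counts limit the precision of most members.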
